A study of Homo sapiens with 2 samples.

Results

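Genes of the urokinase system and of the matrix metalloproteinase family were examined in a ChIP-seq map, made with an antibody to TCF4, of sphere cultures of the cell line CAL-27. The 9 genes were the urokinase gene PLAU, its receptor gene PLAUR, the tissue-type activator gene PLAT, the serpin gene SERPINB5 and the metalloproteinase genes MMP1, MMP2, MMP9, MMP10 and MMP14, out of 19866 protein-coding gene records. They were chosen by name because PLAU lies in one of the densest stretches of peak summits, so the counts at PLAU are a description and no test was made on them. All 9 were found in the RefSeq gene table for GRCh38, the assembly of the hg38 peak coordinates. A summit, the highest point of a peak, was assigned to a gene when it lay inside the gene record, within 1 kb of either end, or within 50 kb of the record.

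CAL-27 is an established line of tongue carcinoma cells of squamous type, of human origin, and both groups are sphere cultures of it. One group is the DNA recovered with the TCF4 antibody (1 library) and the other is the IgG antibody control (1 library), which was not analysed here. The TCF4 library has 26642 peaks, with a median of 10 DNA fragments at the summit and a median fold enrichment of 5.13. There is no replicate, so no difference here has a replicate check, and intervals cover counting error only. Folds and q values of peaks are the authors'. "TCF4" is a name of both an E protein and the Wnt effector TCF7L2, and the labels do not say which the antibody detects. Peaks do not measure expression. Of 10 squamous epithelium markers, 7 had a summit at an end of the gene, against 1 of 6 fibroblast markers, 1 of 5 lymphocyte markers and 0 of 4 hepatocyte markers, where 41.5% of all protein-coding genes had one.

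Urokinase and tissue-type plasminogen activator are serine proteases that cut plasminogen into plasmin, a broad protease of fibrin and matrix proteins. Urokinase is held at the cell surface by its receptor, and serpins restrain the activators. Plasmin and membrane-bound metalloproteinases in turn activate secreted metalloproteinases, which degrade collagens and basement membrane, and these enzymes are known for their role at the invasive edge of squamous carcinomas.

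The members fell far apart in how many summits surrounded them. PLAU had 17 summits within 50 kb of its record, PLAUR had 9, PLAT had 3, MMP9 and MMP14 had 2 each, and SERPINB5, MMP2 and MMP10 had 1 each. MMP1 had none. Over all protein-coding genes the median was 2, with quartiles of 1 and 5, so 2 members lay above the upper quartile and 4 below the median. A total of 8 of 9 members had at least 1 summit within 50 kb, against 77.6% of all protein-coding genes. No summit was counted for more than 1 member.

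**Figure D1:**
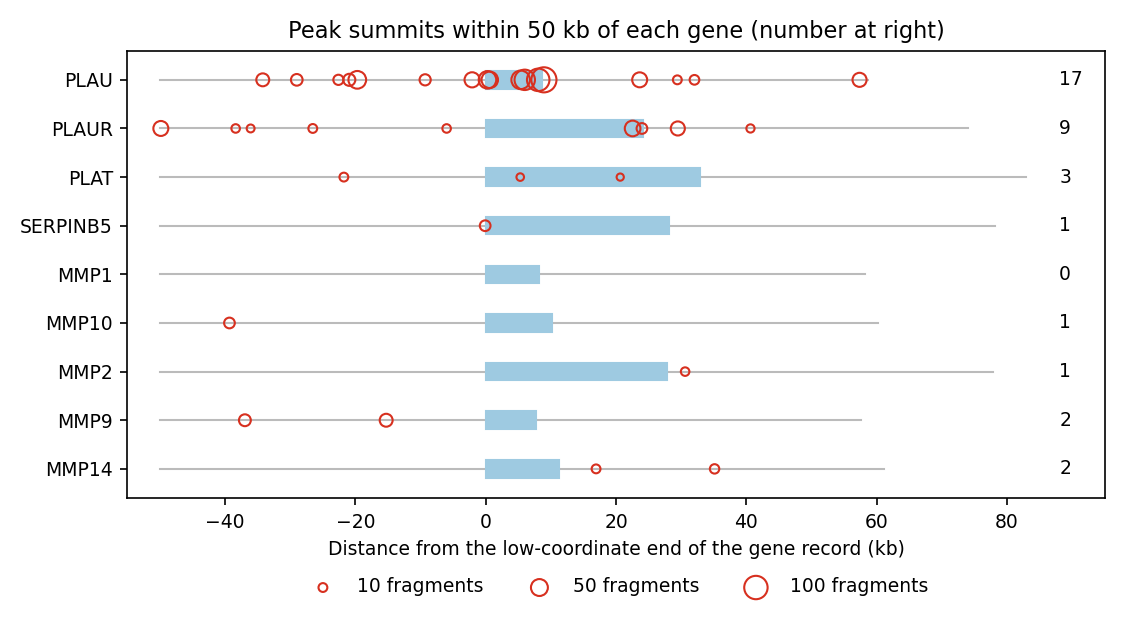
Positions of peak summits (circles, area rising with the number of fragments at the summit) around each of the 9 genes, in kb from the low-coordinate end of the gene record (blue box); grey lines show the 50 kb searched on both sides and the numbers at right are summits per gene. Of the 36 summits, 17 lie within 50 kb of PLAU, 5 of them inside its record. The 5 metalloproteinases have 6 within 50 kb and none inside their records.

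At the genes themselves, 4 of 9 members had a summit inside the record or within 1 kb of an end, against 54.9% of all protein-coding genes. A summit lay within 1 kb of an end in 3 of 9 members, PLAU, PLAUR and SERPINB5, against 41.5% of all protein-coding genes. A summit lay inside the record in 3 of 9, PLAU, PLAUR and PLAT, against 39.0%. Both shares are near those of all genes. PLAU, PLAUR, PLAT and SERPINB5, 4 of 4, had a summit inside or at an end, and 0 of 5 metalloproteinases did, where 54.9% of all protein-coding genes did. With a window of 2 kb, or any overlap of the peak, these counts were the same. The 4 of 4 became 3, with PLAT lost, once −log10 q had to reach 5. It became 2 in the strongest 25% of peaks by fold (PLAUR and SERPINB5) and 2 without the peaks in the densest 10% of local backgrounds (PLAT and SERPINB5). The members were picked with these peaks known, so the split between the 5 metalloproteinases and the other 4 members was not tested. Record lengths were not matched either. They ran from 7.65 kb at MMP9 to 32.8 kb at PLAT, with a median of 24.5 kb over all protein-coding genes.

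**Figure D2:**
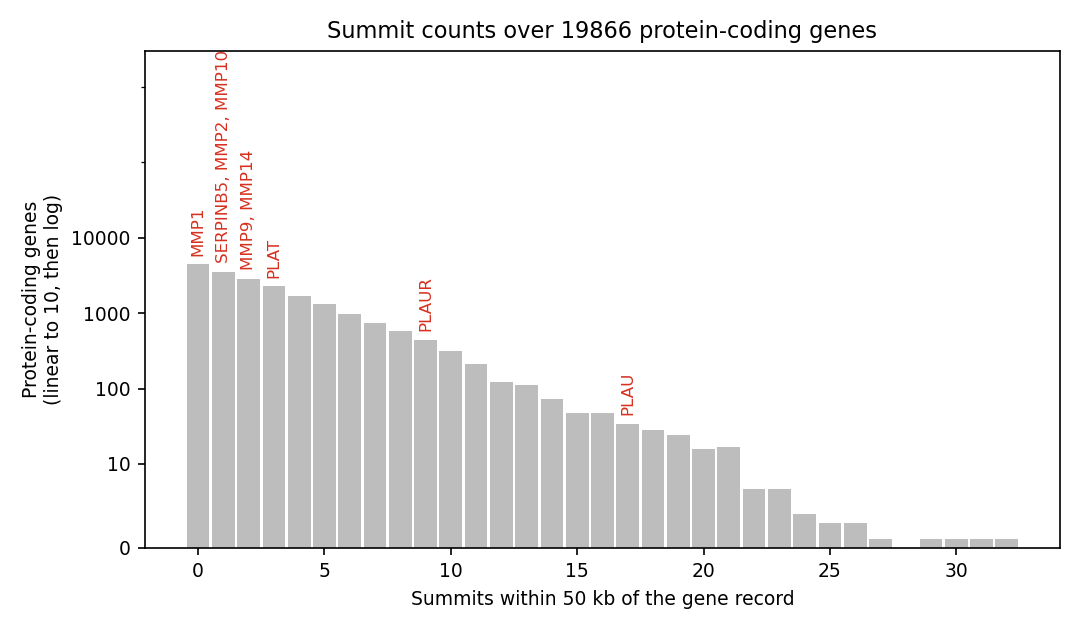
Number of protein-coding genes (vertical axis, linear to 10 and then logarithmic) by the number of summits within 50 kb of the gene record (horizontal axis), with the 9 members named above their bars. PLAU, at 17 summits, lies in the sparse right tail, PLAUR at 9 is on the shoulder, and the metalloproteinases lie at 0 to 2.

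PLAU (gene ID 5328) lies on chromosome 10 from 73908832 to 73917494 and is 8.66 kb long. Its record held 5 summits, and 409 genes (2.06%) had as many. Within 1 kb of its ends lay 4 summits, a number reached by 20 genes (0.101%). Of the 409 genes with 5 or more summits inside, 4 including PLAU reached its 0.577 summits per kb of record. Counting 50 kb to either side, 148 genes (0.745%) had 17 or more. Of the 17 summits, 7 lay below the low-coordinate end, 5 inside and 5 above the high-coordinate end.

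The 6 summits inside PLAU or within 1 kb of it were deep in fragments and low in fold. The first lay 258 bp inside the low-coordinate end, where the record begins since PLAU is on the plus strand, and rested on 54 fragments (exact 95% Poisson interval 40.6 to 70.5) with a fold of 4.03. The next lay 610 bp inside, with 47 fragments (34.5 to 62.5) and a fold of 3.21. No summit followed for 4740 bp. Then came a summit with 61 fragments (46.7 to 78.4) and a fold of 2.03, and another with 75 fragments (59.0 to 94.0) and a fold of 2.56. A summit 617 bp before the high-coordinate end had 92 fragments (74.2 to 113) and a fold of 3.29. The last, 260 bp past that end, had 116 fragments (95.9 to 139) and a fold of 4.33. From the third to the sixth summit, which lies past the record, fragments rose from 61 to 116. The intervals of neighbouring summits in this run overlap, while those of the third and the sixth do not. The run was picked after the values were seen, and the rise was not tested.

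These 6 peaks ranked near the top of the list by fragments and low by fold, at fold percentiles from 0.0113 to 24.6. The summit past the finish of PLAU was among the 35 peaks with the most fragments of all 26642. By the deepest summit inside or within 1 kb, PLAU was among the first 16 of 10915 genes with such a summit, where the median gene reached 13 fragments. By the highest fold, 9733 of the same genes, PLAU included, reached its 4.33, and the median gene reached 6.26. Each of the 6 peaks lay below the list's median fold of 5.13, and 26640 of the 26642 peaks had a fold at least as high as the one at 2.03.

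Fold divides summit fragments by the local background of the peak caller, after 1 is added to each. That background, solved from the deposited fold and p, ran from 12.7 to 29.5 fragments at the 6 PLAU summits, against a median of 0.962 over all peaks and a 99th percentile of 10.1. The highest of the 6 was matched or exceeded by 4 peaks, itself included. Of the 18 peaks with a background at least as high as at the summit past the finish of PLAU, 4 were these PLAU summits. The 4 are neighbours, from 73914182 to 73917754, so they are 1 dense stretch and not 4 separate ones. The median fold of those 18 was 2.80. A peak of 1696 bp covered the last part of the gene, from 73915700 to 73917395, and was the widest of all 26642, whose median width was 175 bp. Peaks covered 2431 bases of the PLAU record, 28.1%. The part of the high local background in the number of summits at PLAU was not tested.

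**Figure D3:**
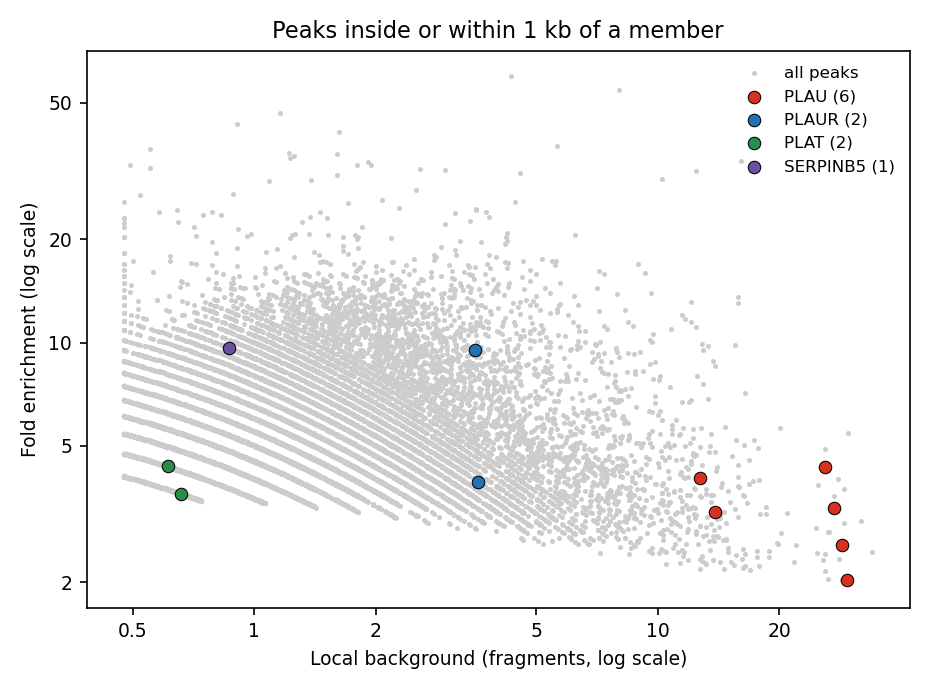
Fold enrichment against the solved local background in fragments (both axes logarithmic) for all 26642 peaks (grey) and the 11 peaks inside or within 1 kb of a member (colours, number of peaks in brackets). The 6 PLAU peaks lie at backgrounds of 12.7 to 29.5 with folds of 2.03 to 4.33, and the SERPINB5 peak lies at 0.864 with a fold of 9.66.

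The other 11 summits within 50 kb of PLAU looked different. They had a median of 23 fragments and a median fold of 6.27, against 68 fragments and 3.25 in and at the gene. Their backgrounds ran from 1.26 to 7.55 and so did not overlap those at the gene. The largest folds lay past the finish of PLAU. One summit 15.0 kb beyond it had a fold of 13.2 on 38 fragments (26.9 to 52.2), and one 48.7 kb beyond had 13.5 on 33 (22.7 to 46.3). Before the gene, a summit 19.7 kb from the record had a fold of 8.86 on 55 fragments (41.4 to 71.6). That summit lay inside LOC124902454, a long non-coding RNA record, and another 2.10 kb before PLAU had a fold of 4.68 on 39 fragments.

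Some of the summits around PLAU lay nearer to another protein-coding record. CAMK2G, a calcium- and calmodulin-dependent kinase subunit gene, was the only other protein-coding record within 50 kb. It had 21 summits within 50 kb of its own record, more than the 17 of PLAU, and 4 inside. The ranges of CAMK2G and PLAU overlap, so some summits count for both. VCL, which encodes the adhesion protein vinculin, began 80622 bp away. One summit, on 27 fragments and at a fold of 7.42, lay 44 bp from the end of CAMK2G. Of the 17 summits, 11 had PLAU as the nearest protein-coding record, and the others had CAMK2G or VCL. The summit with the highest fold, 13.5, was nearest to VCL, at 31917 bp, against 48705 bp from PLAU. The long non-coding RNA record C10orf55 overlaps PLAU and held 4 of the summits, 3 of them inside PLAU as well. These peaks cannot be divided between the overlapping records.

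**Figure D4:**
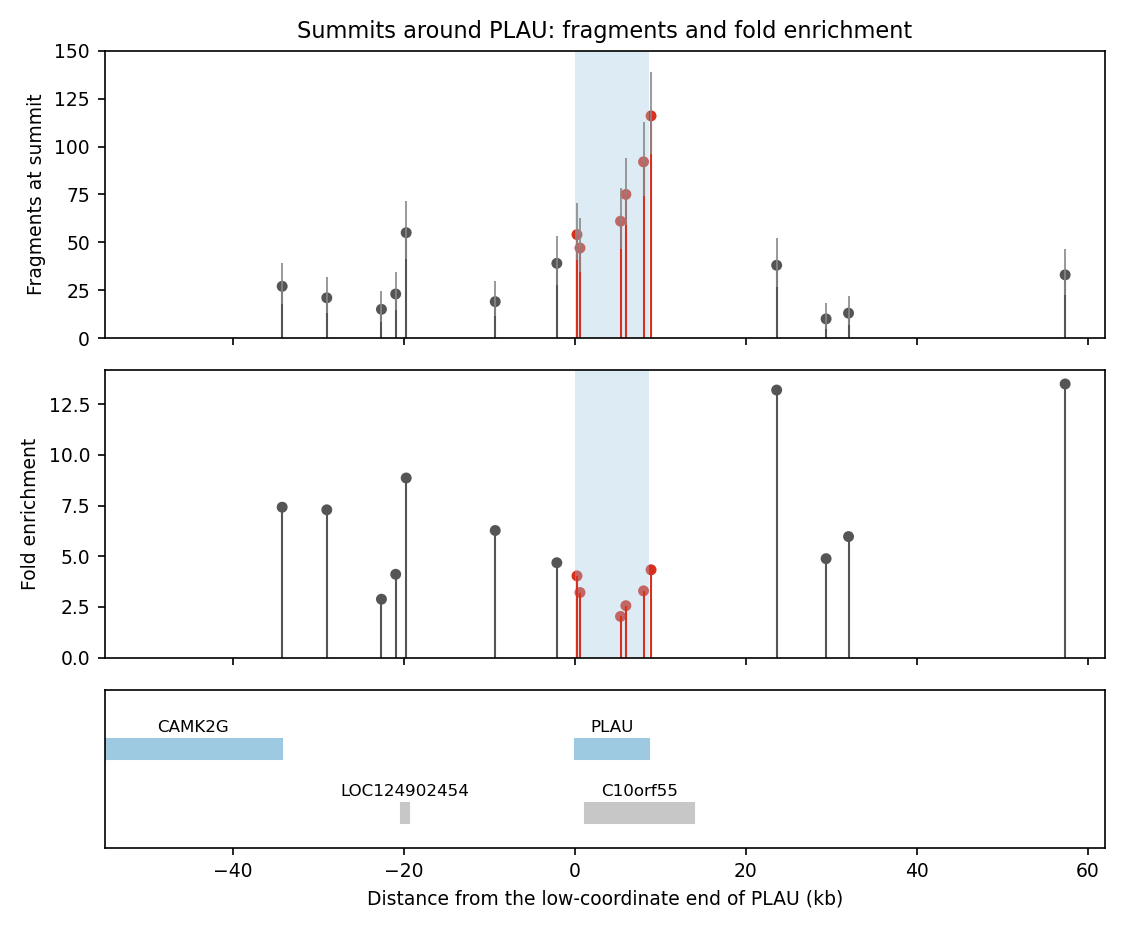
Fragments at the summit with exact 95% Poisson intervals (top) and fold enrichment (middle) for the 17 summits within 50 kb of PLAU, in kb from the low-coordinate end of the gene; red marks the 6 summits inside PLAU (shaded) or within 1 kb, and the bottom panel shows protein-coding (blue) and non-coding (grey) records. Fragments are highest at the gene, up to 116, while fold there is at most 4.33 against 13.5 in the flank.

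The summits of PLAU lay away from its listed promoters. RefSeq promoter windows, from 250 bases before to 50 after a start site, were listed for PLAU at start sites 73910610 and 73911132, both inside the gene record. No peak overlapped either window. The beginning of the record, with summits 258 and 610 bp inside it, was not among the listed sites. The nearest summit lay 1168 bp before the first of these sites, and the nearest after them 3050 bp past the second. The second window, with a GC content of 70.0%, held 2 matches to the E-box core CANNTG, both of the form CACCTG or its reverse CAGGTG. The match 233 bases before the start is shown, with the E-box in capitals, to set it beside the promoters that did carry a peak; it lies at chr10:73910890-73910913 on the plus strand.

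PLAU: gcccccggcCAGGTGcatgggagg

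The 5 genes most like PLAU in its 3 counts (summits inside, at ends and within 50 kb) were sought in this 1 library outside 200 kb of PLAU. CAPN1, a calpain protease gene, had 5, 2 and 17. MIDN had 4, 4 and 16, OPA3 had 4, 3 and 17, and THBS3, a thrombospondin gene, had 5, 3 and 18. ATG2A had 4, 3 and 18, a summed difference of 3 from PLAU against 2 for each of the other 4.

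PLAUR (gene ID 5329), the receptor that anchors urokinase at the cell surface, lies on chromosome 19 from 43646095 to 43670169, on the minus strand, so that its high-coordinate end is its start. It had 9 summits within 50 kb, and 1521 genes (7.66%) had as many. A summit lay 109 bp inside the gene from its start, with a fold of 3.93 on 17 fragments (9.90 to 27.2). A deeper one lay 1540 bp inside, with a fold of 9.52 on 42 fragments (30.3 to 56.8), and 135 bp from the start site of the non-coding record LOC124904724, which lies on the opposite strand, so it cannot be assigned to PLAUR alone. Another lay 5398 bp before the start and had the highest fold around PLAUR, 12.4 on 33 fragments (22.7 to 46.3).

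PLAUR was the nearest protein-coding record to these 3 summits and to 1 that lay 16549 bp before the start on 8 fragments. The summit deepest in fragments was therefore inside the gene rather than at the start, and the intervals of the first pair do not overlap. The other 5 summits lay past the finish of PLAUR, and other protein-coding genes were nearer to each of them. One of these 5 lay at the shared end of IRGQ and ZNF576, with a fold of 11.3 on 38 fragments, and 3 lay inside ZNF428. Local backgrounds at the 9 summits ran from 0.815 to 3.58 fragments, below all 6 summits at PLAU.

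SERPINB5 encodes maspin, an epithelial serpin that is often lost in invasive carcinomas. Its record (gene ID 5268) lies on chromosome 18 from 63476958 to 63505085 on the plus strand. It had a single summit within 50 kb, placed 97 bp before its start, with a fold of 9.66 on 17 fragments (9.90 to 27.2) and a local background of 0.864. Its fold was above that of 93.5% of all peaks, while its fragments equalled those of the summit at the start of PLAUR. The next summit lay 54388 bp away. SERPINB5 thus had 1 summit at its start, which is both its listed site and the beginning of its record, and no other in range. At PLAU, no summit lay within 1 kb of a listed start, but summits lay 258 and 610 bp inside the beginning of the record.

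Both promoters that carried a peak are shown, as the 250 bases before the start site, because they are the stretches of member sequence recovered at a start. The peak covered the last 238 of these bases at SERPINB5, at chr18:63476708-63476957 on the plus strand, and the last 184 at PLAUR, at chr19:43670170-43670419 on the minus strand. Capitals mark matches to the E-box core CANNTG and to the AP-1 site TGACTCA or its reverse TGAGTCA, searched on both strands.

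SERPINB5: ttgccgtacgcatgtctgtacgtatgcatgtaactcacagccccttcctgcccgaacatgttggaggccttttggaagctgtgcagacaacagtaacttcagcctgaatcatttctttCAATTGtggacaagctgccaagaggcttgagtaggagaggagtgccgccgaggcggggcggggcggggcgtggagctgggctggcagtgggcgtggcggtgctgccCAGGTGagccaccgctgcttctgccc

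PLAUR: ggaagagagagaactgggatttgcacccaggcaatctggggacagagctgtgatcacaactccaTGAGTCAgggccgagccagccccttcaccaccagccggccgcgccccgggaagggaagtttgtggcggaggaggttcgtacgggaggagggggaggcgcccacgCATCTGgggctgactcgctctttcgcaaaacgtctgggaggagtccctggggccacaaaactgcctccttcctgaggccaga

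SERPINB5 held 2 E-box cores, 132 and 26 bases before its start, and PLAUR held 1, 82 bases before. The core was found in 65.1% of 22078 promoter windows of protein-coding genes, and in 5 of the 6 windows listed for members. Its CACCTG form, on either strand, was found in 4408 of all windows and in 2 of the 6, at PLAU and SERPINB5. The AP-1 site was found in 4.02% of all windows and among members only at PLAUR, 186 bases before the start, where it straddles the edge of the peak. The TCF/LEF forms CTTTGAA and CTTTGAT, found in 3.62% and 1.99% of all windows, were in none of the 6, and neither were CAGCTG (3975 windows) and the ETS form CCGGAAG (12.8%). A match is a description of the letters and not a bound site.

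PLAT (gene ID 5327), the tissue-type activator best known for dissolving fibrin clots, lies on chromosome 8 from 42174718 to 42207565. It held 2 summits, both among the shallowest of the list. One had a fold of 4.35 on 6 fragments (2.2 to 13.1) and the other a fold of 3.62 on 5 fragments (1.62 to 11.7), the lowest number of fragments of any peak. Their −log10 q values were 2.46 and 1.51, against a median of 4.14. They lay 5284 bp above the start of the record's coordinates and 12215 bp below their finish. The remaining summit, 21.8 kb below the record, lay 130 bp from the end of AP3M2 with a fold of 6.86 on 10 fragments.

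Among the metalloproteinases, the gelatinase genes MMP2 and MMP9 had summits nearby and none at the gene. MMP2 (gene ID 4313), whose product cleaves denatured and basement membrane collagen, lies on chromosome 16 from 55478830 to 55506691. Its only summit within 50 kb lay 2732 bp above the record, at the end of LPCAT2, on 9 fragments (4.12 to 17.1) and at a fold of 6.11. MMP9 (gene ID 4318), on chromosome 20 from 46008908 to 46016561, had a summit 15.3 kb below its record with a fold of 11.6 on 27 fragments (17.8 to 39.3), the highest fold around any metalloproteinase of the 5. MMP9 was the nearest protein-coding record to that summit. A second, 37.0 kb below, lay at the end of ZNF335 with a fold of 6.97 on 22 fragments.

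MMP14 (gene ID 4323), the membrane-anchored metalloproteinase that activates the MMP2 proenzyme, lies on chromosome 14 from 22836585 to 22847758 on the plus strand. It had a summit 5751 bp past its finish with a fold of 5.59 on 10 fragments (4.80 to 18.4). A second, 23.9 kb past, lay 42 bp from the end of LRP10 with a fold of 5.58 on 12 fragments. The medians of the whole list were 5.13 and 10 fragments.

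The interstitial collagenase gene MMP1 (gene ID 4312) and the stromelysin gene MMP10 (gene ID 4319) are neighbours on chromosome 11, from 102789919 to 102798160 and from 102770502 to 102780628. MMP10 had 1 summit within 50 kb, 39344 bp below its record, with a fold of 8.95 on 17 fragments (9.90 to 27.2). The same summit lay 58761 bp from MMP1, just outside its range, and MMP8 was the nearest record to it, at 6204 bp. The next summit above lay 361 kb further up, and 1623 of the 26618 gaps between neighbouring summits (6.10%) were as long. That stretch held 5 metalloproteinase records, MMP10, MMP1, MMP3, MMP12 and MMP13. The 9 metalloproteinase genes from MMP7 to MMP13 span 435 kb and hold this 1 summit, so their counts are not independent of each other.

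E-box cores in the promoter windows of MMP10 and MMP14, which no peak overlapped, are shown in the same way for comparison with the promoters above. They lie at chr11:102780689-102780712 on the minus strand, 75 bases before the start, and at chr14:22836384-22836407 on the plus strand, 192 bases before it. An E-box core was thus found both with a peak and without one.

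MMP10: cttaaaaaaCACATGcatgaatca

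MMP14: caacccctgCAGATGgcagcctgc

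Start sites were listed for 5 of 9 members, PLAU, PLAUR, SERPINB5, MMP10 and MMP14. Of these, PLAUR and SERPINB5 (2 of 5) had a summit within 1 kb of one, against 44.4% of the 15843 protein-coding genes with a listed site. At the 1 kb limit, the PLAU summits at 610 and 617 bp lay inside it, and the PLAUR summit at 1540 bp lay outside. At the 50 kb limit, a summit 49876 bp from PLAUR was counted, while summits 52687 bp from MMP14 and 54388 bp from SERPINB5 were not.

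The wider pathway was described with 4 lists. Of 20 plasminogen activation genes, including the 4 members, 13 (65.0%) showed an end summit, within 1 kb, against 41.5% of all protein-coding genes. Of the 16 that were not members, 10 showed one. All 20 had a summit within 50 kb, against 77.6% of all protein-coding genes. The highest folds were at SERPINB5 (9.66), F3 (9.25 on 18 fragments), SERPINB8 (8.66 on 14) and ENO1 (7.68 on 23). F3 encodes tissue factor, which starts coagulation, and ENO1 encodes a glycolytic enzyme that also serves as a plasminogen receptor. The SERPINB8 summit also lay at an end of HMSD. MRC2 and PLAT had no summit at an end.

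Of 23 metalloproteinase genes, 3 had a summit at an end, against 41.5% of all protein-coding genes. These were MMP28 with a fold of 6.30 on 10 fragments, MMP24 with 5.71 on 10, and MMP17 with 4.14 on 13, and MMP1 and MMP10 had none. Inside or at an end, 19 of 23 had no summit, while 54.9% of all protein-coding genes had one. Outside the chromosome 11 cluster, 3 of 14 had a summit at an end. Among 10 inhibitors and activators of metalloproteinases, 1 had a summit at an end, against the same 41.5%. It was TIMP1, a secreted inhibitor, with a fold of 5.53 on 9 fragments, while A2M and BSG had none.

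Of 20 other extracellular proteases and their inhibitors, 9 had a summit at an end, a share near the 41.5% of all protein-coding genes. The highest folds in this list were those of membrane proteases, ADAM10 at 11.8 on 21 fragments, ADAM9 at 8.71 on 14, ADAM17 at 8.59 on 18 and ADAM12 at 5.49 on 8. The ADAM9 summit also lay at an end of TM2D2, and ADAMTS1 and ADAMTS4 had none. Over the 4 lists, 26 of 73 genes (35.6%) had a summit at an end, against the same 41.5%.

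Stricter handling of dense stretches changed the counts at PLAU and PLAUR. Without the peaks in the densest 10% of local backgrounds, those at 2.96 fragments or more, PLAU had 7 summits within 50 kb, as many as 7.88% of genes had, and 0 inside or at an end, and PLAUR had 7 and 0. SERPINB5 and PLAT kept the same counts. The median fold of the 11 peaks inside or at an end of a member was 3.93, and it was 4.35 for the 3 of them outside dense stretches.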

How the data were processed

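The members and lists were chosen with earlier results of these data known. The submitters' processing notes name Bowtie2 2.3.5.1, SAMtools, MACS2 2.2.7.1 and the build hg38; settings, and whether the IgG library served as control, are not given in the sources used here. The deposited list gives a fold (a ratio), −log10 p and −log10 q values, and a score equal to 10 times the −log10 q with decimals dropped; all are the authors'. These values describe peaks within this list only. Fragments and local background were solved from the deposited fold, (fragments + 1) / (background + 1), and p-value, taken as a Poisson upper tail. The solution matched −log10 p to within 0.0001 at all 26642 peaks, and 500 of 500 peaks with known values were recovered on simulated data. Counts per gene were tested on simulated data too (200 of 200 records recovered). Gene records came from RefSeq (GRCh38), keeping 58961 on the main chromosomes; records on other scaffolds were left out. Promoter sequences are RefSeq's (GRCh38.p14). No genome was used, so exon and intron classes were not assigned. Named genes were the 9 members; in each list, the 4 genes with the highest fold at an end and the first 2 in alphabetical order without one; protein-coding records within 50 kb of PLAU; and the 5 most like it. Alternatives were stricter peaks, other windows, overlap and dense stretches left out. Software was SciPy 1.17.1, NumPy 2.4.6, Matplotlib 3.10.9 and pandas 2.3.3 under Python 3.11.15.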

Additional observations from a re-analysis of the deposited data

How the results depend on the processing

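Of 41 alternative counts, 27 stayed within 1.5 times the reported count and 14 did not. Members with a summit at an end, and members with one inside, each went from 3 to 1 in the strongest 25% of peaks (all protein-coding genes 20.2% and 12.8%) and to 1 without dense backgrounds (37.6% and 36.2%). Members with a summit within 50 kb went from 8 to 5 at a −log10 q of at least 10 (37.2%). The 17 summits around PLAU became 9 at a −log10 q of at least 10 (0.161% of genes had as many), 5 in the strongest 25% (1.63%), 7 without dense backgrounds (7.88%) and 11 when PLAU had to be the nearest protein-coding record. The 26 pathway genes with a summit at an end became 14 with −log10 q at 5 or more, 9 with it at 10 or more, 7 in the strongest 25%, and 13 and 16 at the low- and high-coordinate end alone; the share of all protein-coding genes fell from 41.5% to 27.4%, 14.2%, 20.2%, 22.3% and 21.9%. The median fold of 3.93 became 5.50 within 50 kb, 4.03 at a −log10 q of at least 5 and 4.35 without dense backgrounds. What lay behind these changes was not tested. No paired analysis was possible because only 1 library with peaks was analysed. Peaks of 5 to 10 fragments, as at PLAT, MMP2 and MMP14, have intervals too wide to rank them.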
